A study of Homo sapiens with 10 samples.

Results

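The human 28S rRNA stretch described here is the 400 consecutive positions from 28S 1300 to 28S 1699, out of 6939 positions of 18S and 28S rRNA listed in the files. All positions of this interval were taken, whatever their counts. They hold 7 of the 106 known 2′-O-methylation sites of the study's list (G1315, A1325, C1339, G1521, A1523, A1533 and G1624), 3 candidate positions right 5′ of A1325 (A1322, A1323 and C1324) and 390 other positions. Positions are numbered from 0 as in the files, and the letter is the base in hg19. The interval lies on the unplaced contig chrUn_gl000220 of hg19 at 114648 to 115047, inside the 28S gene, and again at 158620 to 159019 in a second copy with the same sequence, so counts of the copies cannot be separated. The candidates and G1521 were singled out by the study on its NextSeq libraries, A1322 as an unlisted site and G1521 as a listed site that was not detected. Their NextSeq contrast is therefore given as a description, and only the MiSeq libraries test them.

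The cells were PA1, a human cell line from an ovarian teratoma, and the labels give no drug treatment or engineered allele for any group. Within an experiment the groups differ in the handling of the RNA: control libraries were not oxidized and oxidized libraries were. By the study's protocol, controls also skipped β-elimination and phosphate removal, and less fragmented RNA is recommended for them. A contrast of the groups therefore covers all these steps and not oxidation alone. NextSeq libraries (3 control, 3 oxidized) came from passage 6 (replicates 1 and 2) and passage 4 (replicate 3), and pilot MiSeq libraries (2 control, 2 oxidized) from passage 7. Since sequencer, passage and preparation change together between the experiments, their parts cannot be told apart. Nothing says that replicates came from separate cultures, so p-values measure only the spread between these libraries, which may be technical. The files hold only rRNA positions, so the cell line could not be checked against marker genes.

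In RibOxi-seq, RNA is cut at random by the nuclease Benzonase, and periodate oxidation with β-elimination then removes or blocks 3′-ends whose ribose carries a free 2′-hydroxyl. A 2′-O-methylated 3′-end resists oxidation and is ligated to the linker, so after oxidation reads end at methylated bases. Methyl groups protect the phosphodiester bond on their 3′ side from cleavage, and such bases are therefore poor in 3′-ends without oxidation. Methylation of rRNA riboses is made by fibrillarin, guided by box C/D small nucleolar RNAs (SNORDs). A guide stretch of the snoRNA pairs with the rRNA, and the base paired with nucleotide 5 upstream of the box D or D′ motif CUGA is the one methylated.

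The rRNA around the sites is shown because the candidates and G1521 lie within a few bases of another site. Capitals mark the 7 known sites and the 3 candidates, and the hg19 intervals are chrUn_gl000220:114653-114697, 114859-114891 and 114962-114982 (strand +).
28S 1305 to 1349: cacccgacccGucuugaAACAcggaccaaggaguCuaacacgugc
28S 1511 to 1543: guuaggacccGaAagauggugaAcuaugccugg
28S 1614 to 1634: cuggguauagGggcgaaagac
In the first window the capitals are G1315, the run A1322, A1323, C1324 and A1325, and C1339. In the second they are G1521, A1523 and A1533, and in the last G1624.

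All 389 SNORD genes of GENCODE on GRCh37 were scanned for a CUGA motif (621 found, sense strand only) preceded, with 0 or 1 unpaired base between, by at least 9 bases complementary to the interval with Watson-Crick pairs. Of 9 such matches, 8 placed base 5 at a known site (5 of the 7 known sites), 1 at the candidate A1322 and 0 at the 390 other positions. A match is a description of letters only. The snoRNAs of 4 of these matches are shown because their guides overlap on the rRNA, with the paired stretch in capitals.
SNORD18A: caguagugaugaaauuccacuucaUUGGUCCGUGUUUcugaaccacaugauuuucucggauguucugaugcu
SNORD126: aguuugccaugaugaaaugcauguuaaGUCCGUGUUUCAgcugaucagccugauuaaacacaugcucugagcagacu
SNORD2: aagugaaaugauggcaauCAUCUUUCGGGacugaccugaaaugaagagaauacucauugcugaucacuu
SNORD51: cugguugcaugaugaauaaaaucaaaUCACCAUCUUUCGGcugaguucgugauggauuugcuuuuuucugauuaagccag
SNORD18A (chr15:66795581-66795652, strand −) lies inside RPL4, where exons of some annotated transcripts cross it, and pairs 13 bases with 28S 1321 to 1333, which places its base 5 at A1325. SNORD126 (chr14:20794609-20794685, strand −) lies in intronic sequence of CCNB1IP1 and pairs 12 bases with 28S 1319 to 1330, with 1 unpaired base before the CUGA, which places its base 5 at A1322. The SNORD18A and SNORD126 matches thus cover overlapping rRNA, offset by 3 bases at the target. SNORD2 (chr3:186502585-186502653, strand +), inside EIF4A2, pairs 11 bases with 28S 1518 to 1528 and points to G1521. SNORD51 (chr2:207026602-207026681, strand +), in intronic sequence of EEF1B2, pairs 14 bases with 28S 1519 to 1532 and points to A1523. SNORD21 pointed to G1315 and SNORD104 to C1339 with 14 paired bases each, and 3 further SNORD18 genes to A1325 with 11 to 13. For A1323 and C1324 no match of this form was found in the genes scanned. Nor was one found for A1533 and G1624, whose listed guides are U77 and U80 for the former and U80 for the latter. SNORD80 was not scanned here, and the 5 scanned genes named SNORD77 lie on other chromosomes than the U77 gene of RefSeq, so these listed guides were not examined.

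Values in the files are counts of 3′-ends per position. They gather at steps of 50, so a count is not a read, and 150 counts (3 steps) in a library are used below as the lowest level told from 0. Control libraries summed to 30392418 to 80964624 counts over both rRNAs, oxidized NextSeq libraries to 12293410 to 13694386 and oxidized MiSeq libraries to 1353768 and 1568883. In CPM (counts scaled to a library sum of 1000000), 3 steps correspond to 1.85 to 4.94 in controls, 11.0 to 12.2 in oxidized NextSeq and 95.6 to 111 in oxidized MiSeq libraries. NextSeq control 3 stood apart: across the 400 positions its Spearman correlation with controls 1 and 2 was 0.47, against 0.99 between those 2, and A and U made up 50.3% of its 3′-end counts outside the sites against 15.7% to 15.9% in them. Control levels and changes that it moved by over 1.5 times are given with and without it.

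After oxidation the known sites held a larger share of the counts of the interval, most of them in NextSeq and fewer than the other positions in MiSeq. In NextSeq the 7 sites held 0.06%, 0.046% and 0.83% of the counts of the interval in controls 1 to 3, and 85.9%, 88.2% and 88.8% in the oxidized libraries (mean 87.6% ± 1.5, SD, n = 3). In MiSeq they held 0.30% and 0.18% in the controls and 44.0% and 48.5% in the oxidized libraries (mean 46.2% ± 3.20, SD, n = 2). Groups did not overlap in either experiment. The exact two-sided permutation test gave p = 0.1 in NextSeq and p = 0.333 in MiSeq, the smallest these designs allow. For known sites outside the interval the share of the counts outside was 95.1% ± 0.21 in oxidized NextSeq and 59.7% ± 0.036 in oxidized MiSeq libraries. The interval as a whole held 5.80% ± 1.27 of all counts in NextSeq controls against 1.60% ± 0.15 in oxidized libraries, and 4.39% ± 0.29 against 3.27% ± 0.11 in MiSeq, without overlap and with the same smallest p-values. The profile of all 400 positions shows a near continuous field of 3′-ends in controls and isolated peaks after oxidation.

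**Figure D1:**
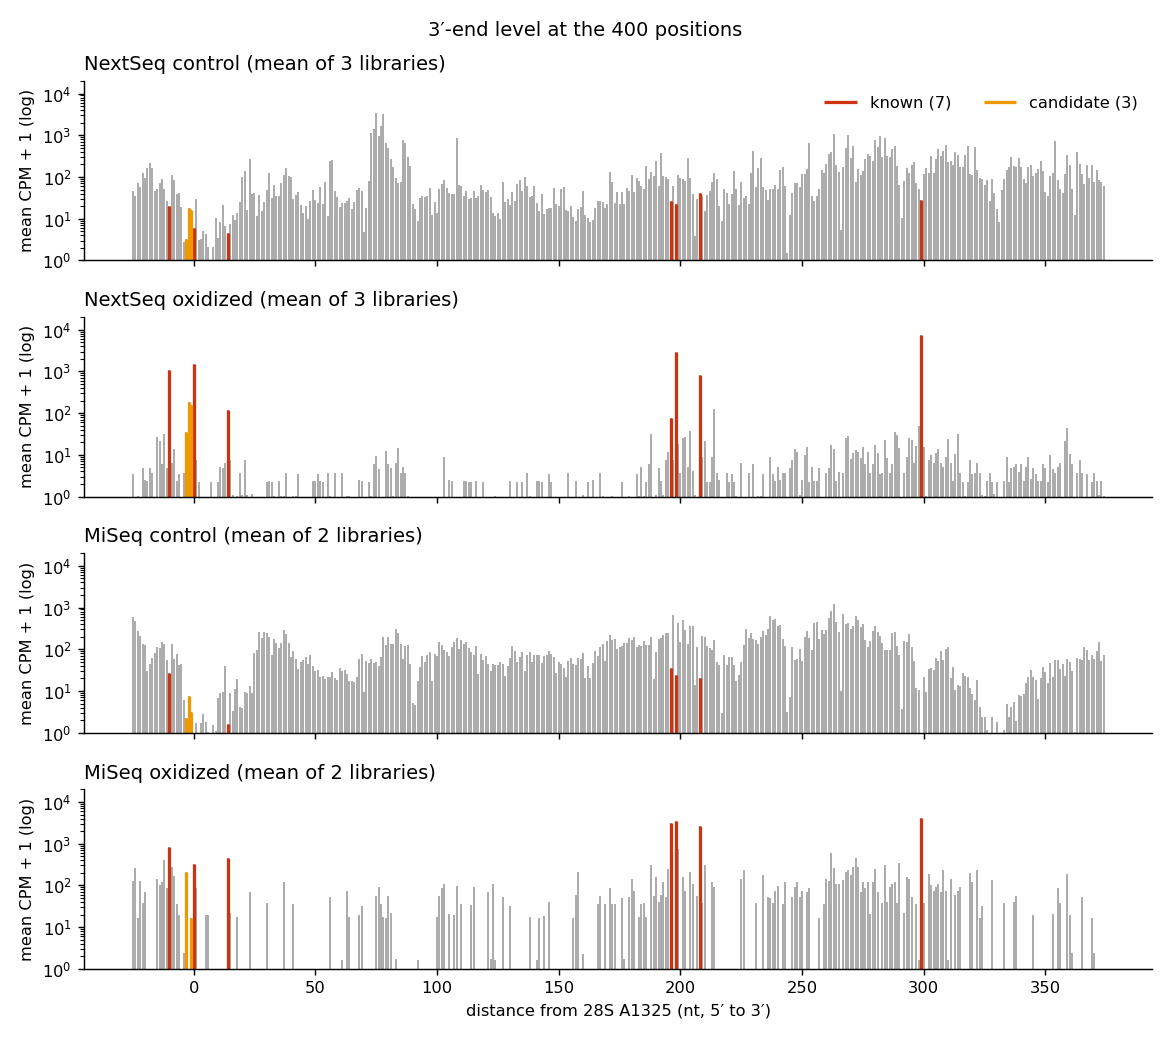
Mean level of 3′-ends (CPM + 1, log axis) at each of the 400 positions against distance from 28S A1325, in the 4 groups. Red lines are the 7 known sites and orange lines the 3 candidates. The red lines hold on average 87.6% of the counts of the interval in oxidized NextSeq and 46.2% in oxidized MiSeq libraries.

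The highest site in both experiments was G1624, which lay alone, 91 nt from the next known site. Controls held 615, 469 and 5035 counts and oxidized NextSeq libraries 85608, 101489 and 108467. It thus rose from 27.0 ± 34.4 to 7548 ± 951 CPM (SD, n = 3), and it alone took 47.1% ± 1.73 of the counts of the interval. Without control 3 its control level was 7.14 ± 1.91 CPM (SD, n = 2). In MiSeq both controls held 0 counts and the oxidized libraries 5678 and 6423, or 4182 ± 796 CPM (SD, n = 2), at least 1003-fold higher than the floor of 3 steps in the controls. Both experiments separate the groups here without overlap, and NextSeq control 3 held most of the control counts.

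A1523, for which U32 and U51 are the listed guides, was the next. Controls held 204, 256 and 4522 counts in NextSeq and oxidized libraries 33024, 36908 and 41673 (22.0 ± 32.9 against 2847 ± 306 CPM). Without control 3 its control level was 2.99 ± 0.25 CPM (SD, n = 2). In MiSeq, controls held 1214 and 564 counts and oxidized libraries 4947 and 5392 (23.1 ± 6.36 against 3568 ± 587 CPM). A1533, 10 bases further 3′, held 52, 254 and 9032 counts in NextSeq controls and 11221, 11335 and 10349 after oxidation, so that control 3 alone came close to the oxidized libraries in counts, though not in CPM (120 against 756 to 922). Without control 3 the control mean of A1533 was 1.93 ± 1.71 CPM in place of 41.2. In MiSeq, A1533 held 1194 and 368 counts in controls and 4016 and 3824 in oxidized libraries (19.6 ± 10.6 against 2692 ± 187 CPM).

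In the first group, A1325, the site of the U18 snoRNAs, held 438, 560 and 160 counts in NextSeq controls and 18819, 18945 and 22079 after oxidation (5.03 ± 2.56 against 1525 ± 96.3 CPM). In MiSeq it was listed at 0 in both controls and held 618 and 362 counts in the oxidized libraries, 331 ± 89.5 CPM, at least 79.3-fold higher than the floor. G1315, the U21 site, held 917, 617 and 2915 counts in NextSeq controls and 12143, 14696 and 15356 after oxidation (19.6 ± 16.6 against 1078 ± 144 CPM), and without control 3 the control level was 10.1 ± 3.56 CPM (SD, n = 2). In MiSeq it held 1215 and 736 counts in controls and 1486 and 994 after oxidation (25.9 ± 2.37 against 841 ± 151 CPM). C1339, the U104 site, was lower: 400, 302 and 102 counts in NextSeq controls and 1338, 1695 and 1692 after oxidation (3.53 ± 2.09 against 121 ± 18.6 CPM), and 50 and 2 against 626 and 708 counts in MiSeq (0.60 ± 0.76 against 461 ± 87.7 CPM). None of these 3 sites overlapped between the groups in CPM. Among all 6939 positions, 1.6% in NextSeq and 13.8% in MiSeq were higher after oxidation without overlap.

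**Figure D2:**
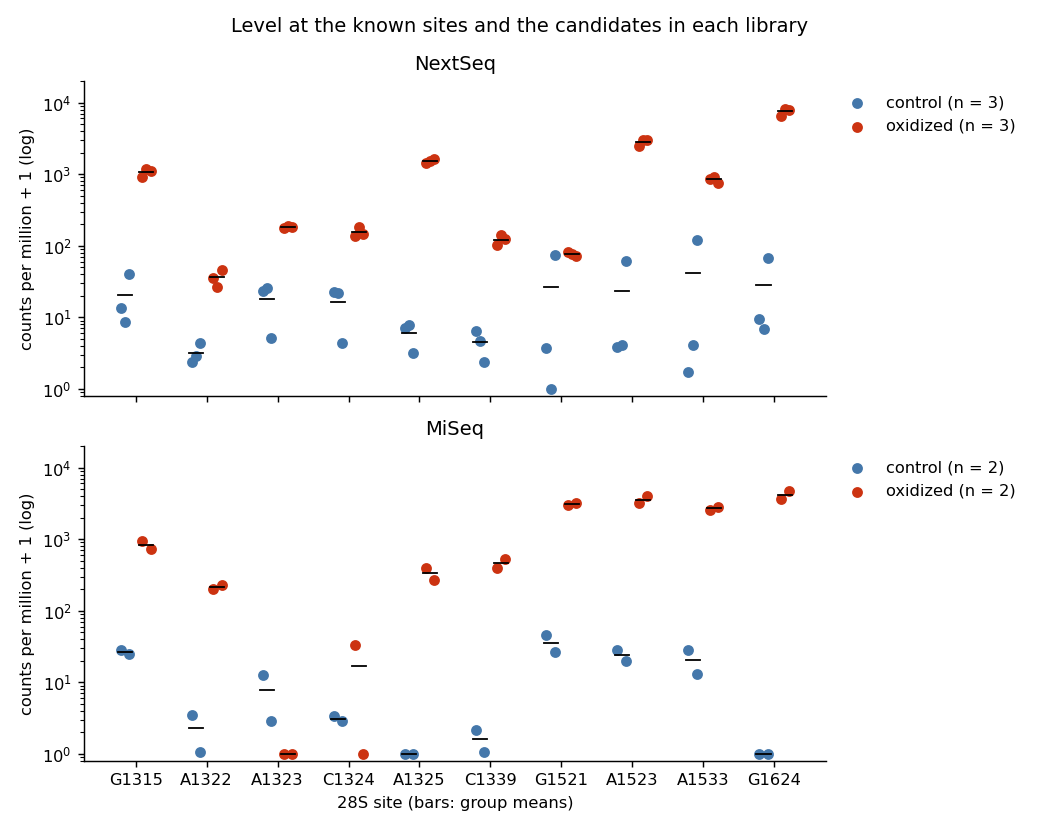
Level in each library (CPM + 1, log axis) at the 7 known sites and the 3 candidates, with group means as black bars, NextSeq above and MiSeq below. Oxidized points lie above all control points everywhere except at G1521 in NextSeq (71.3 to 81.1 against 0 to 72.7 CPM) and at A1323 and C1324 in MiSeq.

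The order of the known sites after oxidation was G1624, A1523, A1325, G1315, A1533, C1339 and G1521 in NextSeq, where the only neighbours in this order that overlapped were G1315 and A1533. In MiSeq it was G1624, A1523, G1521, A1533, G1315, C1339 and A1325, with overlap of G1624 with A1523 and of A1523 with G1521. Against all 106 known sites the interval did not hold the highest levels: its sites ranked from 19 (G1624) to 99 (G1521) by mean oxidized CPM in NextSeq and from 35 (G1624) to 96 (A1325) in MiSeq. The study cautions that linker ligation varies with sequence, so levels at different sites do not compare how far they are methylated. The same limit applies to the ratios between positions given below.

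At each position the change was tested with the quasi-likelihood test of edgeR, p-values were adjusted by Benjamini-Hochberg across every 18S and 28S position with a count, and a call needed an adjusted p under 0.05. Normalization sets the zero of these fold changes: the median log2 fold change of all positions was −2.25 in NextSeq and −4.76 in MiSeq, and −6.26 and −4.98 when library totals alone were used. Values below are therefore relative to that median, while the test itself refers to the scale of the fit. The SE given with edgeR fold changes is approximate. It is the absolute log2 fold change on the scale of the fit over the square root of the test's F statistic. In NextSeq, 14 of the 400 positions (3.50%) were called higher, beside 3.02% of all positions tested, and 107 (26.8%) lower, beside 18.8%. The 14 were 6 of the 7 known sites, the 3 candidates and 5 others. In MiSeq, 34 of 394 tested (8.63%) were called higher, beside 10.6% of all, and 220 (55.8%) lower, beside 51.6%, and the 34 were all 7 known sites, A1322 and 26 others. Called lower were only positions that are neither known sites nor candidates, 107 and 220. These counts depend on single libraries: in NextSeq the count of higher positions was 9 without control 1 or control 2 and 29 without control 3, and of lower ones 3, 5 and 125. In MiSeq it was 7 higher and 0 lower without either control, and 49 and 53 higher without oxidized 1 and 2.

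At the known sites the NextSeq changes relative to the median were 14.77 ± 1.16 at G1624 (SE, adjusted p = 0.0027), 14.26 ± 1.15 at A1325 (adjusted p = 0.0031), 13.76 ± 1.52 at A1523 (adjusted p = 0.015), 12.24 ± 0.82 at G1315 (adjusted p = 0.0017), 11.17 ± 1.99 at A1533 (adjusted p = 0.036) and 11.09 ± 1.17 at C1339 (adjusted p = 0.015). Apart from A1533, these calls held when any library was left out. A1533 passed without any 1 control but not without oxidized 1, 2 or 3 (adjusted p = 0.051 to 0.053), with library totals alone (adjusted p = 0.076) or with counts divided by 50 (adjusted p = 0.064). Without control 3 the values were 15.82 at G1624, 15.66 at A1523, 14.53 at A1533, 13.65 at A1325, 12.50 at G1315 and 10.48 at C1339. G1521 was not called in NextSeq. With 1 library left out, its change relative to the median lay between 7.80 and 11.56 (edgeR, adjusted p = 0.086 to 0.16). Of the other alternatives, 1 passed (adjusted p = 0.035). In MiSeq, 12.27 ± 0.47 was found at A1523, 12.09 ± 0.68 at A1533, 11.46 ± 0.51 at G1521 and 10.03 ± 0.35 at G1315, each with adjusted p = 0.0069. At C1339 (adjusted p = 0.014), A1325 and G1624 (adjusted p = 0.0069 each) the MiSeq controls lay under the floor, and no fitted fold is given. The median they are relative to moved when 1 library was left out: they became 13.69 to 16.29 without oxidized 1 and 13.57 to 15.47 without oxidized 2, and lay at 9.67 to 12.44 without either control. All 7 MiSeq calls held when any library was left out, and none did with the replicate number as a block (adjusted p = 0.17 at each).

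The candidates are directly 5′ of A1325. A1322 held 102, 152 and 252 counts in NextSeq controls and 462, 312 and 612 after oxidation, or 2.21 ± 1.01 against 35.0 ± 9.66 CPM. A1323 held 1620, 2003 and 308 counts in controls and 2316, 2272 and 2517 after oxidation (17.1 ± 11.3 against 181 ± 5.42 CPM). C1324 held 1564, 1698 and 259 counts in controls and 1774, 2218 and 2010 after oxidation (15.3 ± 10.3 against 154 ± 24.0 CPM). All 3 were higher after oxidation in CPM without overlap, as were 1.6% of all 6939 positions. Relative to the median of all positions they were higher by 10.31 ± 0.86, 9.38 ± 1.20 and 9.28 ± 1.22 on the log2 scale (10.19, 8.72 and 8.62 without control 3). In the fit of all libraries this was less than at any known site of the interval other than G1521.

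In MiSeq 1 of the 3 candidates was called. A1322 held 112 and 2 counts in controls and 312 and 304 in the oxidized libraries, 1.30 ± 1.75 against 212 ± 18.2 CPM, and was called higher (edgeR, adjusted p = 0.039). The call was lost without control 1 (adjusted p = 0.067) or control 2 (adjusted p = 0.14). A1323 was at 0 in both oxidized libraries against 508 and 56 counts in the controls, and C1324 held 50 and 0 against 105 and 56. Neither was called (adjusted p = 0.10 and 0.24). This does not show that they are absent there: 3 steps correspond to 24.3% and 41.4% of the A1325 count in the 2 oxidized MiSeq libraries, while A1323 held 11.9% ± 0.46 and C1324 10.1% ± 1.42 of A1325 in NextSeq. Such shares were not detectable at the MiSeq depth. A1322, in contrast, held 2.46%, 1.65% and 2.77% of the A1325 count in NextSeq and 50.5% and 84.0% in MiSeq, where its counts correspond to about 6 steps.

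G1521, the listed target of the snoRNA named snR39B, was the lowest known site in NextSeq and came next after A1523 in MiSeq. NextSeq controls held 200, 0 and 5485 counts and oxidized libraries 1074, 930 and 976, so that control 3 reached 72.7 CPM and overlapped the oxidized libraries (71.3 to 81.1 CPM). Without control 3, the 2 remaining controls held 2.76 and 0 CPM. In MiSeq it held 1947 and 778 counts in controls and 4677 and 4290 in oxidized libraries, or 34.9 ± 13.1 against 3075 ± 133 CPM, an 88.1-fold difference of means. Relative to A1523, 2 bases 3′, G1521 held 3.25%, 2.52% and 2.34% in the oxidized NextSeq libraries and 94.5% and 79.6% in the MiSeq ones. A1522, between them, held 0.24% ± 0.10 of the A1523 count in NextSeq and 0 counts in oxidized MiSeq libraries.

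**Figure D3:**
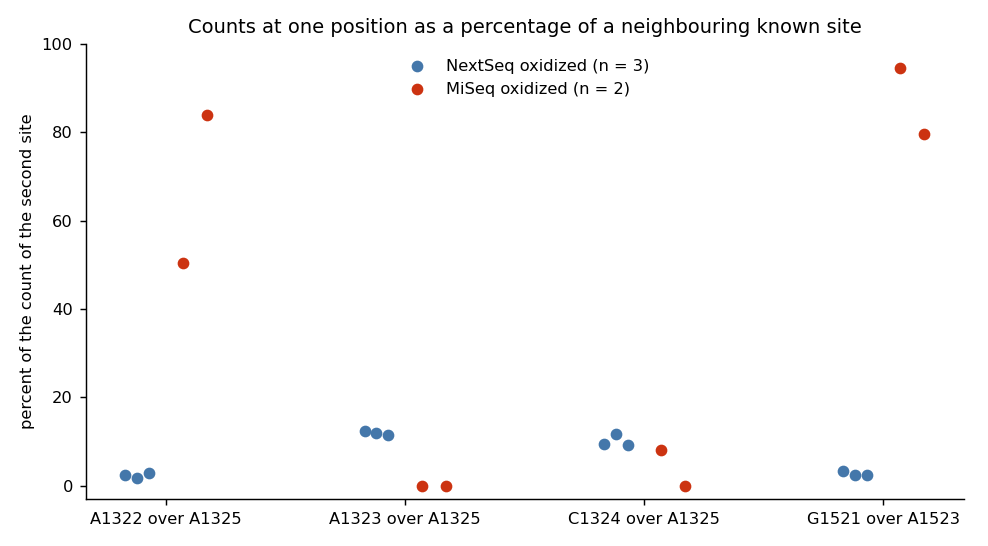
Count at each candidate as a percentage of A1325, and at G1521 as a percentage of A1523, in each oxidized library (NextSeq blue, MiSeq red). A1322 and G1521 lie at 1.65% to 3.25% in NextSeq and 50.5% to 94.5% in MiSeq, while A1323 and C1324 lie at 9.10% to 12.3% and 0% to 8.09%.

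Counts beside a known site were compared at the same places across sites. One, 2 and 3 positions 5′ of a site, the median over the known sites of both rRNAs was 0.46%, 0.34% and 0.21% of the count of the site in oxidized NextSeq libraries (96 to 103 sites). C1324, A1323 and A1322 stood at ranks 11, 8 and 10 from the top at their distances. High percentages were also found 5′ of other known sites of the interval, but from few counts. C1520 held 14.0% ± 8.37 and C1519 8.82% ± 3.29 of the count at G1521, and U1338 held 4.50% ± 3.87 of C1339. C1519 (54 to 102 counts) and U1338 (2 to 100) lay under the floor in every oxidized NextSeq library, and C1520 (53 to 206) in oxidized 3. Counts under the floor are not told from 0, while A1323 and C1324 held 1774 to 2517. In CPM these neighbours were low (10.8, 6.61 and 5.28 CPM, against 154 and 181 at C1324 and A1323). Summed over 3 positions in NextSeq, the 5′ side of A1325 held 24.3% ± 1.04 of its count and the 3′ side 0.50% ± 0.57. G1521, the lowest site, held 22.9% ± 9.20 on its 5′ side and 30.2% ± 14.7 on its 3′ side, the latter over 2 positions since the known site A1523 is left out. C1339 held 10.5% ± 6.46 and 5.84% ± 4.91, from 100 to 304 and 50 to 154 counts, in part under the floor. At G1624 both sides held under 1% (0.93% ± 0.25 and 0.28% ± 0.067), and at G1315 3.74% ± 1.65 and 1.85% ± 0.14. In MiSeq the sides of A1325 held 71.3% ± 17.96 and 26.2% ± 2.76 of its count, and those of G1315 73.9% ± 2.60 and 53.5% ± 31.6 (SD, n = 2). A1322 there ranked first of 98 sites 3 positions 5′ (67.2% ± 23.7, against a median of 0.91%). C1313, 2 positions 5′ of G1315, held 49.0% ± 3.82 of that site.

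**Figure D4:**
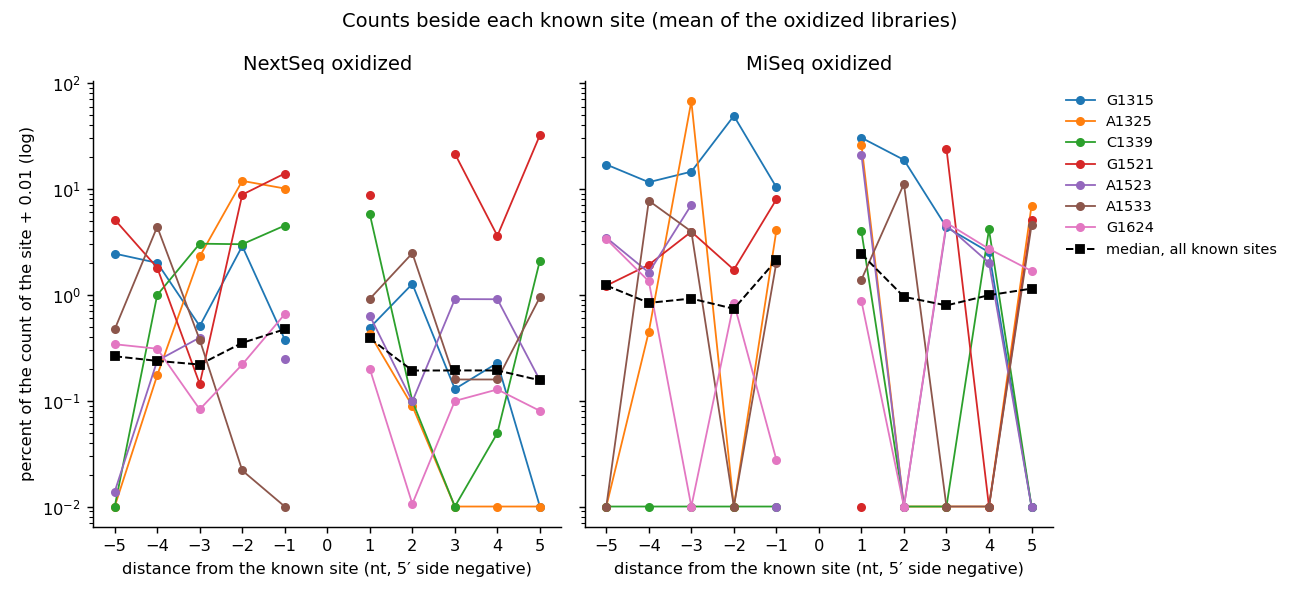
Mean count at 1 to 5 positions on each side of a known site, as a percentage of the site (+ 0.01, log axis), in oxidized NextSeq (left) and MiSeq (right) libraries. The black dashed line is the median over all known sites, 0.21% to 0.46% on the 3 nearest 5′ positions in NextSeq and 0.73% to 2.12% in MiSeq; positions that are themselves known sites are left blank.

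In control libraries, the count of each known site was compared with its surroundings, the median of 10 positions to either side leaving out known sites (with 1 count added to each). The median ratio over the 7 sites was 0.082, 0.052 and 0.58 in NextSeq controls 1 to 3, with 6 of 7 sites below 1 in each. It was 0.20 and 0.082 in MiSeq controls, with all 7 below 1. Of these, A1325 held 0 counts against neighbour medians of 112 and 50, which are under the floor too. At the other positions of the interval the median ratio was 0.99 to 1.04, and at known sites outside it 0.050 to 0.33. In oxidized libraries the ratio was 473 to 623 in NextSeq and 69.5 to 72.8 in MiSeq, and the exact two-sided permutation test on the log2 ratios gave p = 0.1 and p = 0.333, again the smallest possible. The neighbour medians in oxidized libraries were 0 to 152 counts, under the floor except at G1624 in NextSeq oxidized 3. The size of these oxidized ratios is therefore not measured, only their direction. The site above 1 differed: A1325 in controls 1 and 2 (2.83 and 2.17) and A1533 in control 3 (3.53). Among the candidates, A1322 lay below 1 in all 5 controls. A1323 and C1324 lay above 1 in NextSeq controls 1 and 2, A1323 also in both MiSeq controls and C1324 in MiSeq control 2. In MiSeq control 2, however, the candidates held 2 to 56 counts against neighbour medians of 26 to 56, all under the floor. The same holds for C1324 in MiSeq control 1 (105 against 133). These ratios therefore do not tell whether a gap was present.

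**Figure D5:**
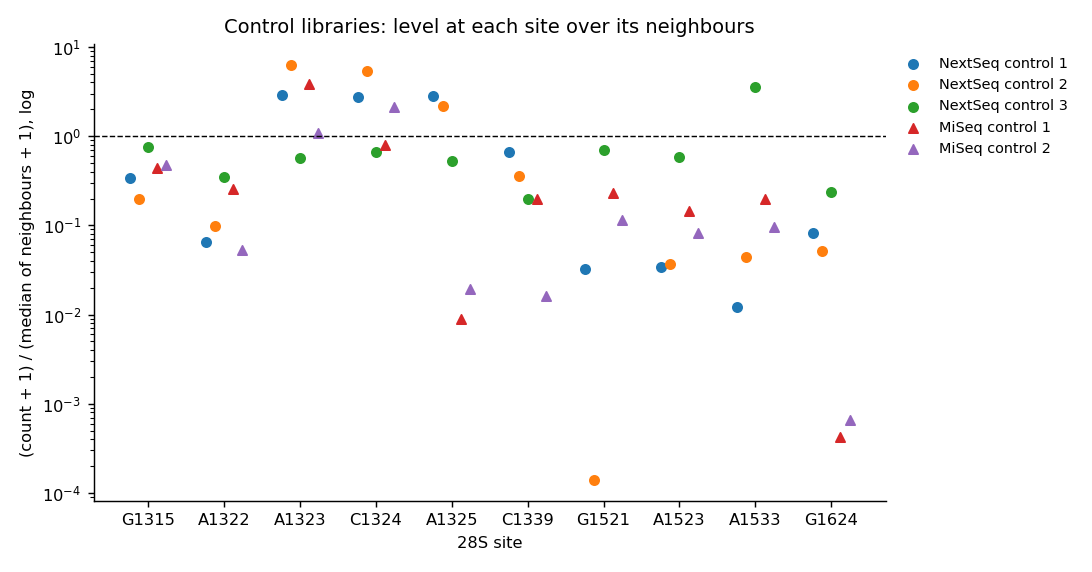
Count of each site over the median of 10 positions to either side, known sites left out, in the 5 control libraries (log axis; dashed line, equal). Known sites lie below the line apart from A1325 in NextSeq controls 1 and 2 and A1533 in control 3, and A1323 and C1324 lie on both sides of it.

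Stretches poor in control counts lay close to A1325 in both experiments. In NextSeq they did not include its neighbours A1323, C1324 and C1326, the last of which held 3070, 3209 and 224 counts in controls. Taking positions with a mean control level under 10% of the median of the interval, a limit chosen after the values were seen, the longest such stretch in NextSeq was 1327 to 1333 (7 nt, 0 to 832 counts), also without control 3. In MiSeq, 1648 to 1663 (16 nt) and 1324 to 1335 (12 nt) were found, each with 0 to 204 counts, so that A1325 and C1324 lie in the second. In NextSeq controls, by contrast, 1648 to 1663 held 150 to 29591 counts. Of the 400 positions, 6 had a lower mean control level than A1322 in NextSeq (16 without control 3) and 20 in MiSeq.

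Of the positions that are neither known sites nor candidates, those with the highest log2 fold change in NextSeq were U1535, G1623, U1338, U1340 and C1539, 1 to 6 nt from a known site. C1539 held 12333, 12284 and 3906 counts in controls and 1617, 1446 and 1897 after oxidation, which is 125 against 126 mean CPM. G1623 had 49.9 against 47.9 mean CPM and U1535 14.5 against 20.9. Without control 3 the control means were 161 CPM at C1539, 18.2 at G1623 and 6.01 at U1535, so that G1623 and U1535 were higher after oxidation than in the 2 remaining controls. C1539, G1623, U1535 and U1340 were called higher by edgeR (adjusted p = 0.036 to 0.041), and with library totals alone none of the 4 passed and the log2 fold change of G1623 turned to −0.059. Nor did any of the 4 pass without control 1 or without control 2 (adjusted p = 0.091 to 0.23), or with the replicate block (adjusted p = 0.099 to 0.21). C1539 lost its call in 5 of the 6 fits with 1 library left out. In MiSeq the rule gave C1331, U1658, C1326, G1653 and U1663. These held 2 to 59 counts in controls and 2 to 300 after oxidation, and all 5 lie in the 2 MiSeq stretches poor in control counts. Only G1653 exceeded 3 steps in an oxidized library (300 and 102 counts). All but U1663 were called, and without control 1 or without control 2 none of the 5 passed.

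Leaving out the candidates, whose NextSeq contrast chose them, 7 of 391 positions (1.79%) were called higher in both experiments, beside 2.05% of all positions tested in both. They were 6 known sites and C1313. C1313, chosen after its values were seen, held 46.8 to 56.0 CPM in NextSeq controls and 20.8 to 38.2 after oxidation, and 124 and 147 against 340 and 490 CPM in MiSeq, so its level in CPM was lower after oxidation in NextSeq and higher in MiSeq.

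Whether the effect of oxidation differed between the experiments was tested as an interaction over all 10 libraries, which called 41 positions of the interval (24 higher in MiSeq, 17 lower), beside 8.2% of all positions tested. Of the known sites with counts above the floor in every group, the effect at G1315 was smaller in MiSeq by 4.35 ± 0.79 on the log2 scale (edgeR, adjusted p = 0.017), or by 3.47 relative to the median difference of all positions. At A1523 and A1533 the differences were −3.73 ± 1.34 (adjusted p = 0.12) and −1.36 ± 1.92 (adjusted p = 0.81), and without NextSeq control 3 they were −5.53 (adjusted p = 0.0025) and −4.59 (adjusted p = 0.029). At G1521, which was singled out on its NextSeq values, the difference was 0.77 ± 2.60 (adjusted p = 1.0), and over the alternatives it lay between −2.24 and 4.87 (adjusted p = 0.32 to 1.0). At the sites whose MiSeq controls lay under the floor, G1624 was called (adjusted p = 0.017), but not without MiSeq control 1 or 2 (adjusted p = 0.089 and 0.083) or with the replicate block (adjusted p = 0.21). A1325 and C1339 were not called (adjusted p = 0.083 and 0.70), and A1325 was without NextSeq control 3 (adjusted p = 0.0038) or with library totals alone (adjusted p = 0.010). The candidates were chosen on their NextSeq contrast, so the interaction does not test them. It called A1323, though not with the replicate block (adjusted p = 0.21), and it did not call A1322 or C1324. The call at G1315 was lost with library totals alone (adjusted p = 0.78), without NextSeq control 1 (adjusted p = 0.050), without any 1 of the 4 MiSeq libraries (adjusted p = 0.055 to 0.089) and with the replicate block (adjusted p = 0.22). Without MiSeq control 1 or 2, edgeR's interaction called 0 positions of the interval (78 and 77 at an unadjusted p under 0.05), and without NextSeq control 1 or 2 it called 2 and 3.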

How the data were processed

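RibOxi-seq 3′-ends of rRNA were counted in 10 libraries of PA1 cells. Per the labels and the study's methods, the authors trimmed reads with cutadapt 1.12, collapsed duplicates by a 6-base random tag, aligned with TopHat2 2.1.1 to hg19 with 2 copies of 18S and 28S, and used SAMtools 0.1.19 and BEDtools. They deposited the counts of 3′-ends per position as whole numbers without normalization. Because values gather at steps of 50, a count is not a read, no counting interval is given, and 3 steps (150 counts per library) served as the floor, which covers counting error only. Lines naming no rRNA position, all at 0, were dropped. Tables of the authors' own DESeq2 comparisons and base calls were not used.

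Counts were grouped by the sample titles, and experiments were fitted apart. Positions with 1 count or more in some library entered the quasi-likelihood fit of edgeR 4.0.16 (R 4.3.3), scaled by TMM, and p-values were adjusted by Benjamini-Hochberg. The script was also run on simulated data that spread less between libraries than these, which checks the code and not the test's behaviour here. CPM are counts over the library's sum of all positions, times 1000000. Exact permutation tests were two-sided. Alternatives were DESeq2 1.42.0, RLE factors, library totals, at least 10 summed counts, counts divided by 50, the passage, averaged libraries, the replicate block and leaving out each library. Same-numbered control and oxidized libraries correlated at −0.021 to 0.028 over all positions, and differently numbered ones at −0.030 to 0.029. This does not settle whether the numbers pair libraries, since both NextSeq replicates 3 came from passage 4.

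Oxidized MiSeq libraries 1 and 2 differed, in steps of 50, by no more than sampling noise over all positions (chi-square over degrees of freedom 1.05, p = 0.18). They were kept as 2 since no other pair of the group exists, and averaging them is an alternative. NextSeq controls 1 and 2 and NextSeq oxidized 2 and 3 were nearly as alike (chi-square over degrees of freedom 1.12 and 1.15). Averaging each of these pairs is the NextSeq alternative. Named positions were the 7 known sites, the 3 candidates and, per experiment, the 5 other positions with the highest log2 fold change and counts in every oxidized library. The interval, lists and tests were chosen with earlier results of these data known. Sequences were read from GRCh37 and GENCODE.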

Additional observations from a re-analysis of the deposited data

Results flagged for a closer look

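At G1315 the effect of oxidation differed between the experiments by the interaction test, with a log2 fold change lower by 4.35 in MiSeq than in NextSeq (−4.35 ± 0.79, SE, edgeR, adjusted p = 0.017, 10 libraries). Control levels were 19.6 ± 16.6 CPM in NextSeq (SD, n = 3) and 25.9 ± 2.37 in MiSeq (SD, n = 2), and oxidized levels were 1078 ± 144 and 841 ± 151 CPM. In CPM the means differed between oxidized and control libraries by 54.9-fold in NextSeq (106-fold without control 3, where the control mean was 10.1 CPM) and 32.5-fold in MiSeq. With library totals in place of TMM the difference was −0.76 (adjusted p = 0.78), so its size rests on the normalization. At G1624 the interaction was also called (adjusted p = 0.017), where both MiSeq controls held 0 counts, so no fitted difference is given. Passage, sequencer and preparation cannot be told apart here.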

How the results depend on the processing

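Counts of called positions moved with the fit. Of the interval's NextSeq positions, 14 higher and 107 lower, DESeq2 called 27 higher, library totals 8 higher and 280 lower, the passage covariate 23 higher, counts divided by 50 called 9 higher and 0 lower (132 at an unadjusted p under 0.05), averaged pairs 12 lower, and the replicate block 9 higher and 8 lower. Leaving out each library gave 9 to 29 higher and 3 to 125 lower. Of the MiSeq positions, 34 higher and 220 lower, counts divided by 50 called 141 lower, the averaged oxidized pair (chosen after seeing the data) 59 higher, and the replicate block 0 and 0 (20 and 68 at an unadjusted p under 0.05, against 44 and 232 called by DESeq2). Leaving out each library gave 7 to 53 higher and 0 to 262 lower (0 without either control, where 40 lay under an unadjusted p of 0.05). The interaction, with 41 positions, called 76 with library totals and 0 with the replicate block (61 unadjusted), and 0 to 59 when a library was left out, which was also chosen after seeing the data. The cause of these moves was not tested. Whether the shared numbers pair libraries is not known, so the block's lower counts cannot be read as a weaker effect. In NextSeq the block changed the call of none of the 6 known sites.

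Of the named positions, G1623 in NextSeq turned to −0.059 with library totals. The interaction turned at G1521 (−1.59 with the replicate block, −2.24 to 1.36 with a library left out, lowest without NextSeq control 3), at A1523 (0.26 with library totals) and at A1533 (2.75 with library totals), and none of these values was called. The share of known sites in oxidized NextSeq libraries was 89.9% with the candidates and 89.4% with the position on each side, and the latter gave 51.1% in oxidized MiSeq and 1.63% and 4.63% in NextSeq and MiSeq controls. With a library left out, the shares were 87.1% to 88.5% and 44.0% to 48.5% in oxidized, and 0.053% to 0.45% and 0.18% to 0.30% in control libraries. The control gap ranged from 0.067 to 0.33 in NextSeq and from 0.082 to 0.20 in MiSeq. Counts at 1 to 3 positions 5′ of a site, 7.37% of the site as the MiSeq median, were 21.7% on the 3′ side, and ranged from 2.91% to 4.56% in NextSeq and from 5.44% to 9.30% in MiSeq without a library. Depth limits the oxidized MiSeq values most, where 3 steps are 95.6 and 111 CPM.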
